A study of Sus scrofa with 35 samples.

Results

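The proteasome genes of pig were followed through stem cells and embryos in which the homeobox transcription factors OTX2 or LEUTX had been changed. Members were all genes whose symbol is PSMA, PSMB, PSMC, PSMD, PSME, PSMF or PSMG followed by a number: 48 of the 14673 genes listed in the 4 deposited expression tables. PSMC3IP is taken by this pattern through its name but encodes a meiotic recombination factor and no subunit, so it is described apart, which leaves 47 genes. They are 8 alpha subunits (PSMA) and 7 beta subunits (PSMB1 to PSMB7) of the core, 3 replacement beta subunits (PSMB8 to PSMB10), 6 ATPases (PSMC) and 14 non-ATPases (PSMD) of the cap, 4 activator subunits (PSME), 1 inhibitor (PSMF1) and 4 core assembly chaperones (PSMG).

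The proteasome is the protease that degrades ubiquitin-tagged proteins in the cytosol and nucleus. Its barrel-shaped core stacks alpha rings around beta rings that carry the proteolytic sites, and a cap made of a base and a lid recognises, deubiquitinates and unfolds substrates before they enter the core. Other rings can replace the cap, and interferon induces alternative catalytic beta subunits together with one such ring, which changes the peptides made for antigen presentation. In cleavage embryos and pluripotent cells the proteasome is known for clearing maternal and short-lived regulatory proteins.

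Bulk RNA was sequenced from 18 libraries in 6 groups of 3. The pig expanded potential stem cell (pEPSC) groups were OTX2 overexpression, OTX2 knockout, LEUTX overexpression and wild type, and the embryo groups were 4-cell embryos with OTX2 overexpression and wild-type 4-cell embryos. Each embryo library pooled 10 embryos without zona and was made with a modified Smart-seq2 protocol, whereas pEPSC RNA was extracted as total RNA with TRIzol. The labels used here give neither the vector or promoter behind overexpression, nor the knockout allele, nor the time since either was made. The knockout columns share a name prefix that may stand for a single line. Whether the 3 libraries within a group were separate cultures, clones or animals is not labelled, so the p-values measure only the spread between these libraries. The 3 pEPSC comparisons use the same wild-type libraries.

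Levels below are nuclear TPM, the authors' length-scaled transcript abundance after the mitochondrially encoded genes were left out and the rest rescaled to a total of 1000000. Mitochondrial transcripts took 9.02 to 10.1% of TPM with OTX2 overexpression, 10.2, 10.3 and 22.4% with OTX2 knockout, 15.9 to 16.1% with LEUTX overexpression and 14.5 to 15.7% in wild-type pEPSCs. They took 51.4 to 51.9% in OTX2-overexpressing embryos and 55.7 to 57.7% in wild-type embryos. OTX2 stood at 10758, 9932 and 12068 nuclear TPM in overexpressing pEPSCs, against 299 to 307 in wild type, and at 128, 145 and 128 in the knockout, whose deleted part the labels do not give. LEUTX stood at 3783, 3799 and 3670 nuclear TPM in LEUTX-overexpressing pEPSCs and was listed at 0 in wild type. In the same LEUTX-overexpressing libraries OTX2 stood at 0.156, 0.351 and 0.249 nuclear TPM, below the knockout libraries. A change with LEUTX overexpression is therefore also one in cells with almost no OTX2 transcript. In embryos OTX2 stood at 17075 to 22023 nuclear TPM with overexpression, against 662 to 761 in wild type. The 6 pluripotent-cell markers summed to 4288 to 4531 nuclear TPM in wild-type pEPSCs, and all 8 oocyte and cleavage markers were listed in embryos, at 5426 to 6373 in wild type. Read depth is unknown for TPM, and in bulk RNA fewer cells of a type and less RNA per cell cannot be told apart.

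The core and cap subunits spread far more widely in wild-type embryos, where single subunits towered over the rest, than in wild-type pEPSCs. Across the 34 core and cap genes in all tables, the highest level was 442 to 688 times the lowest in wild-type embryo libraries and 14.9 to 17.4 times in wild-type pEPSC libraries. The lowest gene in wild-type embryo libraries stood at only 3.88 to 5.22 nuclear TPM, where unknown read depth limits the ratio. The leading genes in wild-type pEPSCs were the alpha subunit PSMA2 at a mean of 560.6 nuclear TPM, the catalytic subunit PSMB7 at 532 and the beta subunit PSMB4 at 503. In wild-type embryos the beta subunit PSMB2 led with 2784, 2668 and 2310 nuclear TPM in the 3 libraries, followed by PSMA2 with 1107, 1340 and 1227. The levels of the 43 members in both settings had a Spearman correlation of 0.40 between wild-type embryos and wild-type pEPSCs, a description over genes that share their libraries.

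The embryo and pEPSC tables were normalized separately and came from different protocols, so the level gaps that follow are a description without a test. Of the 43 members, 8 were above every wild-type pEPSC library in every wild-type embryo library, 34 were below, and PSMA5 overlapped. The same counts were not made over all genes, so these are not shown to be particular to the proteasome. PSMB2 was at 2587 nuclear TPM in embryos and 269 in pEPSCs, a ratio of 9.60. The assembly chaperone PSMG1 was 2.91 times, the activator PSME4 2.30 times and PSMA2 2.19 times as high in embryos. At the other end, the ATPase PSMC5 averaged 4.85 nuclear TPM in embryos and 283 in pEPSCs, the lid subunit PSMD3 4.72 and 216, and PSME2 3.62 and 89.7. All 6 ATPases were lower in embryos. The median cap subunit stood at 0.258 to 0.291 of the median core subunit in wild-type embryo libraries and at 0.651 to 0.701 in wild-type pEPSC libraries, and the summed cap at 0.197 to 0.237 and 0.812 to 0.825 of the summed core.

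**Figure D1:**
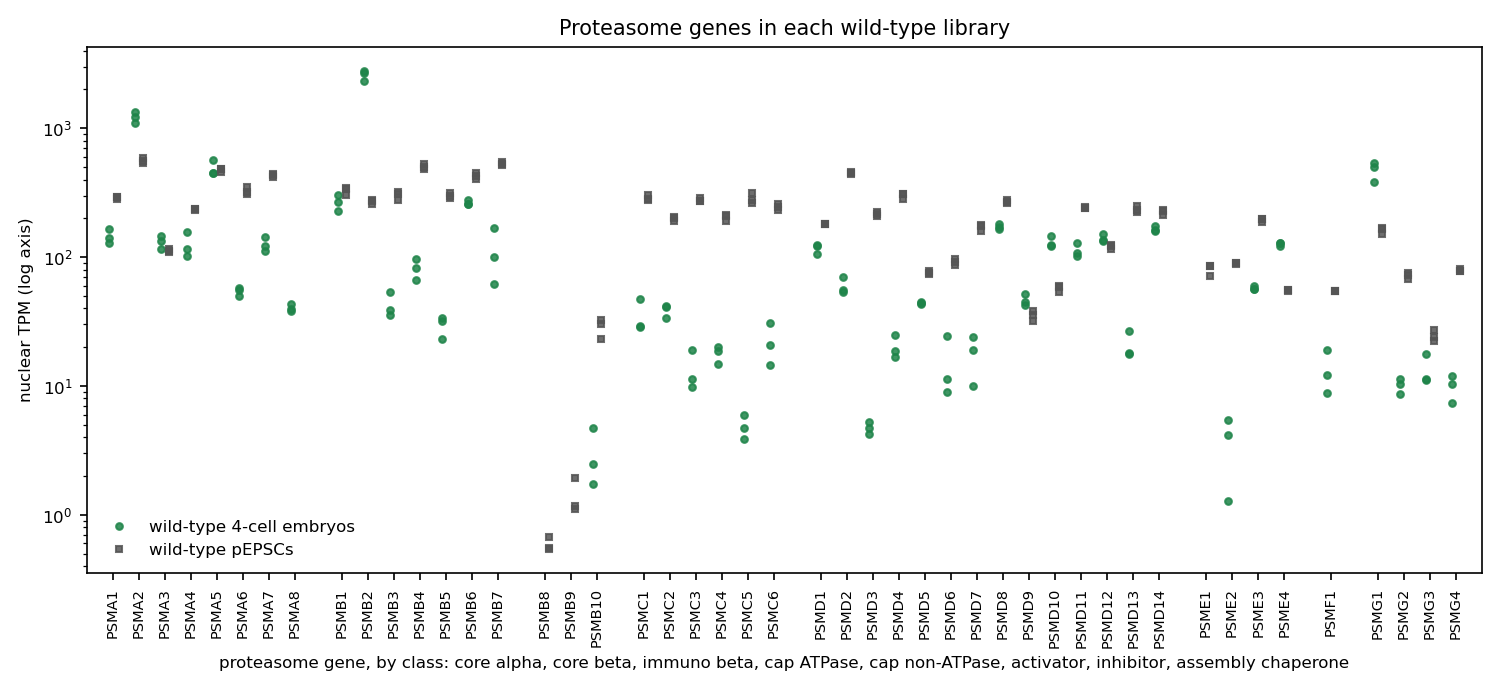
Level of each member in nuclear TPM (log axis) in the 3 wild-type embryo libraries (circles) and the 3 wild-type pEPSC libraries (squares), 1 marker per library, grouped by class. PSMB2 stands far above the other subunits in embryos at a mean of 2587, and all 6 ATPases are lower in embryos than in pEPSCs; the tables were normalized separately.

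Fold changes are differences of mean log2(nuclear TPM + 1), a scale that understates the change of genes at a few TPM, and a member was called at a Benjamini-Hochberg adjusted p under 0.05 over all genes tested with limma. The median gene was not at 0: it moved by 0.12 with OTX2 overexpression, -0.12 with OTX2 knockout and 0.12 with LEUTX overexpression in pEPSCs, and by 0.16 in OTX2-overexpressing embryos. Counts are therefore also given relative to the median gene, and a call that changes under the other scalings tried (TPM as deposited, median-ratio factors, quantile normalization) is marked as such. The median member changed by 0.00 with OTX2 overexpression, 0.24 with OTX2 knockout, -0.10 with LEUTX overexpression and 0.16 in OTX2-overexpressing embryos.

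With OTX2 overexpression in pEPSCs as many members rose as fell on nuclear TPM, at shares near those over all genes. The interferon-type activator subunit PSME2 rose about 5-fold and the replacement catalytic subunits PSMB8 and PSMB9 rose from very low levels and stayed rare, while the activator PSME3, the assembly pair PSMG1 and PSMG2 and most of the lid fell. Of 46 members tested, 18 were called higher and 18 lower, a share of 78.3% beside 82.2% of all genes. The split was 45.4% higher and 36.8% lower over all genes, and 18 of 46 members lay above the median gene. Calls held under all 4 scalings for 15 of the 18 higher and 16 of the 18 lower members. The equal split did not hold under the others. It was 22 higher and 16 lower on TPM as deposited, 15 and 19 under median-ratio scaling, and 25 and 18 under quantile normalization. At a 2-fold change or more 3 members were higher and 1 lower, beside 21.6% and 11.4% of all genes. PSMB8, under 1 nuclear TPM in every wild-type library, passed the filter on low values only through the overexpressing libraries, and without it 17 of 45 members were higher, 2 of them at least 2-fold. The 18 higher and 17 lower members whose library groups did not overlap stand beside 45.7% and 37.4% of all genes.

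Among the 3 catalytic sites of the core, PSMB5 and PSMB6 rose and PSMB7 was not called. PSMB5, the chymotrypsin-like subunit on chromosome 7, 76014576 to 76021922, had 498, 491 and 508 nuclear TPM with OTX2 overexpression, against 299, 312 and 289.8 in wild type. PSMB6, the caspase-like subunit, had 565, 571 and 595 nuclear TPM with OTX2 overexpression, against 428, 449.7 and 404 in wild type. All 3 overexpressing libraries were above all 3 wild-type libraries for both genes, with log2 fold changes of 0.73 (standard error 0.042, adjusted p = 6.67e-08) for PSMB5 and 0.43 (standard error 0.0469, adjusted p = 8.38e-06) for PSMB6. PSMB7, the trypsin-like subunit, had 538, 525 and 557 nuclear TPM with OTX2 overexpression, against 524, 549 and 523 in wild type, with overlapping groups and a log2 fold change of 0.02 (adjusted p = 0.63) whose sign flips between scalings.

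The structural beta subunit PSMB1 had 426, 402 and 435 nuclear TPM with OTX2 overexpression, against 336, 343 and 304 in wild type, and PSMB2 had 309, 289.8 and 309 against 274, 278 and 256. Neither gene's groups overlapped, at log2 fold changes of 0.36 (adjusted p = 0.000103) and 0.17 (adjusted p = 0.00841), and the call of PSMB2 was lost under median-ratio scaling. PSMB3 and PSMB4 were not called, with log2 fold changes of 0.08 and 0.00 whose signs flip between scalings. So 4 of 7 beta subunits were higher and 0 lower by limma, also at an unadjusted p under 0.05, where the count is again 4 and 0.

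The alpha ring went mostly the other way, with 2 of 7 subunits higher and 4 lower. PSMA1 had 179, 175 and 185 nuclear TPM with OTX2 overexpression, against 295, 293 and 281 in wild type, a log2 fold change of -0.69 (standard error 0.0445, adjusted p = 1.66e-07). PSMA6 had 215, 220.5 and 246 nuclear TPM with OTX2 overexpression, against 322, 351 and 308 in wild type, a log2 fold change of -0.52 (standard error 0.0635, adjusted p = 2.04e-05). The groups of both genes lay apart. PSMA5 and PSMA3 also fell, at -0.28 and -0.22. PSMA7 had 529, 504 and 461 nuclear TPM with OTX2 overexpression, against 419, 439 and 437 in wild type, and PSMA4 had 267, 262 and 252 against 237, 237 and 231. Their groups did not overlap, but their rises of 0.20 (adjusted p = 0.00435) and 0.15 (adjusted p = 0.00866) were lost under median-ratio scaling. PSMA2 was not called, at -0.02, and its sign flips between scalings.

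The replacement catalytic subunits PSMB8, PSMB9 and PSMB10 take the places of PSMB5, PSMB6 and PSMB7 when an immunoproteasome forms. PSMB8 (chromosome 7, 25058456 to 25061666) had 4.12, 6.33 and 6.37 nuclear TPM with OTX2 overexpression, against 0.675, 0.556 and 0.539 in wild type. PSMB9 (chromosome 7, 25072133 to 25077508) had 8.13, 6.87 and 6.84 nuclear TPM with OTX2 overexpression, against 1.18, 1.11 and 1.93 in wild type. All overexpressing libraries were above all wild-type libraries, with log2 fold changes of 2.04 (standard error 0.157, adjusted p = 5.79e-07) for PSMB8 and 1.80 (standard error 0.148, adjusted p = 9.56e-07) for PSMB9. PSMB8 was not analysed in the other tables. Both remained rare beside their constitutive partners: PSMB8 was at 0.827 to 1.29% of PSMB5 with OTX2 overexpression and 0.178 to 0.226% in wild type, and PSMB9 at 1.15 to 1.44% of PSMB6 against 0.246 to 0.477%. PSMB10 had 21.2, 23.8 and 21.5 nuclear TPM with OTX2 overexpression, against 32.3, 23 and 30.2 in wild type. These groups overlapped, and the call at -0.34 (adjusted p = 0.0222) was lost on TPM as deposited and without overexpressing library 1 or 3 or wild-type library 1 or 3.

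PSME2 and PSME1 are the partner subunits of the interferon-inducible activator ring, and only PSME2 was called. PSME2 had 476, 424 and 560.0 nuclear TPM with OTX2 overexpression, against 88.6, 89.8 and 90.7 in wild type, a ratio of means of 5.42. All 3 overexpressing libraries stood far above wild type, with a log2 fold change of 2.42 (standard error 0.0852, adjusted p = 4.04e-09). PSME1 had 74.9, 77.7 and 77.7 nuclear TPM with OTX2 overexpression, against 85.4, 85 and 71 in wild type, with overlapping groups and a log2 fold change of -0.06 (adjusted p = 0.448) whose sign flips between scalings. The ratio of PSME2 to PSME1 was thus 6.35, 5.46 and 7.21 in the overexpressing libraries, against 1.04, 1.06 and 1.28 in wild type.

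The other activators fell. PSME3, which forms an activator ring in the nucleus, had 104, 108 and 108 nuclear TPM with OTX2 overexpression, against 196, 189 and 199 in wild type, a log2 fold change of -0.86 (standard error 0.0474, adjusted p = 4.96e-08). PSME4, a single-chain activator, had 45.9, 48.3 and 45.5 nuclear TPM with OTX2 overexpression, against 55.3, 54.6 and 55.4 in wild type, a log2 fold change of -0.24 (standard error 0.0592, adjusted p = 0.00338). Neither gene's groups overlapped. The inhibitor PSMF1 rose, with 89.1, 89.3 and 90.4 nuclear TPM with OTX2 overexpression, against 54.3, 54.2 and 54.3 in wild type, a log2 fold change of 0.71 (standard error 0.0523, adjusted p = 4.08e-07).

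PSME2 and PSME1 are neighbours on chromosome 7, at 75154570 to 75157871 and 75161830 to 75164531 in Sscrofa11.1, 3.96 kb apart. EMC9, a membrane protein insertion factor, lies between them and overlaps PSME1. With OTX2 overexpression EMC9 was at 39.1 ± 4.76 nuclear TPM, against 17.8 ± 0.956 in wild type (SD, n = 3 each), and the interferon regulatory factor IRF9 nearby was at 13.7 ± 0.870 against 4.48 ± 0.867. PSMB8 and PSMB9 lie 10.47 kb apart on chromosome 7 with TAP1, a peptide transporter subunit of antigen presentation, between them. TAP1 was at 28.1 ± 0.602 nuclear TPM with OTX2 overexpression, against 4.58 ± 0.373 in wild type, a log2 fold change of 2.39 (adjusted p = 3.6e-09). Its partner TAP2, on the far side of PSMB8, was at 41.1 ± 5.34 against 80.8 ± 3.34, at -0.96 (adjusted p = 2.83e-06). Also within 20 kb, DCAF11, a ubiquitin ligase receptor, was at 90.2 ± 3.36 against 42.1 ± 0.871, FITM1, a lipid droplet protein, at 3.30 ± 0.799 against 0.323 ± 0.280, and the chromatin reader BRD2 at 174.5 ± 6.41 against 225.1 ± 11.9. Of the 7 neighbours tested, 5 rose and 2 fell, beside 45.4% and 36.8% of all genes, and 2 annotated noncoding genes were not tested. FITM1, among these rises, was under 1 nuclear TPM in wild type and passed the filter on low values only through the overexpressing libraries. These neighbours were looked at after the values of PSME2, PSMB8 and PSMB9 were seen, and because the counting is not stated to use strand, the reads of EMC9 and PSME1 may be shared.

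Of the 5 leukocyte markers, 3 were listed in this table, summing to 15.7 to 19.1 nuclear TPM with OTX2 overexpression and 1.28 to 3.11 in wild type. PTPRC and LYZ were not listed. The 3 fibroblast markers listed of 6 summed to 35.6 to 39.0 against 10.6 to 13.8, and the 6 pluripotent-cell markers to 2400 to 2642 against 4288 to 4531. The part of these shifts in the rise of PSME2, PSMB8 and PSMB9 was not tested.

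**Figure D2:**
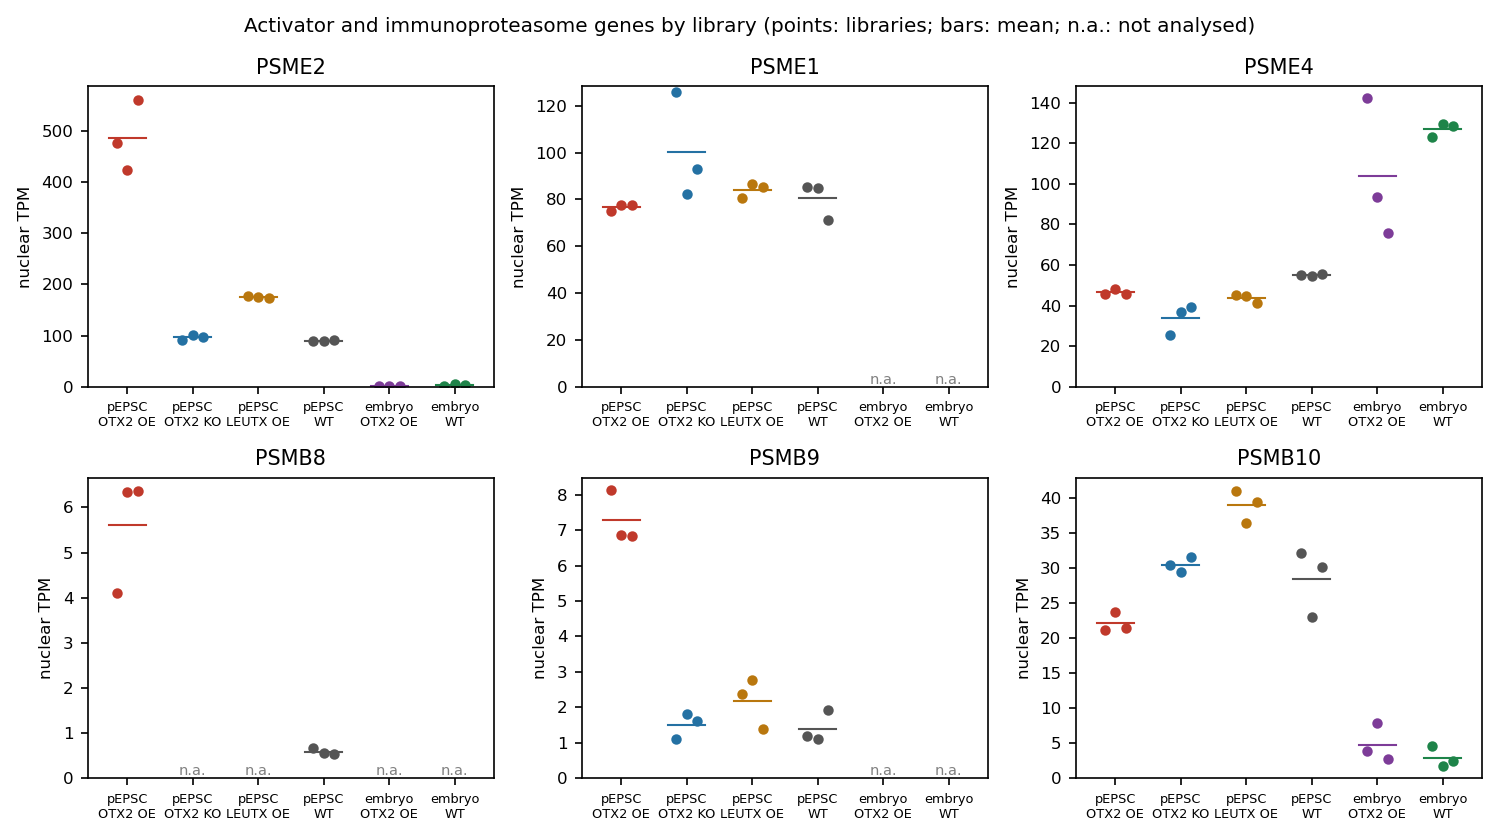
Nuclear TPM of PSME2, PSME1, PSME4, PSMB8, PSMB9 and PSMB10 in every library of the 6 groups, with bars at the group means; n.a. marks a gene not analysed in that table. PSME2 reaches 424 to 560.0 with OTX2 overexpression and 173 to 178 with LEUTX overexpression, against 88.6 to 90.8 in wild-type pEPSCs, while PSME1 overlaps wild type in all 3 engineered lines.

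In the base of the cap, the ATPases that unfold substrates were split, with 2 of 6 higher and 2 lower. PSMC5 had 473, 422 and 454 nuclear TPM with OTX2 overexpression, against 275, 312 and 263 in wild type, and PSMC4 had 265, 256 and 259 against 207, 214 and 190.0. Both rose, by log2 0.67 (adjusted p = 5.29e-06) and 0.35 (adjusted p = 8.36e-05), with groups apart, though PSMC5 overlaps FTSJ3 in the annotation. PSMC6 had 125, 130.4 and 148 nuclear TPM with OTX2 overexpression, against 257, 244 and 232 in wild type, and PSMC2 had 145, 141 and 143 against 204, 201 and 192. Both fell, at log2 -0.86 (adjusted p = 6.42e-07) and -0.47 (adjusted p = 3.49e-06), with groups apart. PSMC1 and PSMC3 were not called, at 0.09 and 0.11, and the sign of PSMC1 flips between scalings. Among the base scaffolds, the ubiquitin receptor PSMD4 rose by 0.59 (adjusted p = 9.56e-07), PSMD1 fell, at -0.18 (adjusted p = 0.00357), a call lost on TPM as deposited, and PSMD2 was not called at 0.00, with a sign that flips.

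The lid went both ways, with 2 of its 8 subunits higher and 5 lower. PSMD13 had 432, 417 and 445 nuclear TPM with OTX2 overexpression, against 231, 249.8 and 226 in wild type, and PSMD8 had 445, 431 and 438 against 269.6, 279 and 261. These structural lid subunits rose by log2 0.87 (standard error 0.0497, adjusted p = 6.37e-08) and 0.70 (standard error 0.0415, adjusted p = 8.82e-08), with groups far apart. PSMD12, another structural lid subunit, had 56.5, 63.2 and 65.2 nuclear TPM with OTX2 overexpression, against 125, 122 and 115 in wild type. PSMD14, the deubiquitinase of the lid, had 116, 116 and 139 nuclear TPM with OTX2 overexpression, against 231, 229 and 212 in wild type. Both stood at 0.51 to 0.55 of wild type, with groups apart, at log2 -0.96 (standard error 0.0668, adjusted p = 2.76e-07) and -0.86 (standard error 0.0733, adjusted p = 1.4e-06). PSMD6, PSMD7 and PSMD11 fell too, at log2 -0.62 to -0.31. PSMD3 was not called, at -0.03, and its sign flips.

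The assembly factors moved as pairs. PSMG2 had 28.3, 27.4 and 25.9 nuclear TPM with OTX2 overexpression, against 68, 74.9 and 72.1 in wild type, and its partner PSMG1 had 89.8, 99.1 and 97.1 against 166, 169 and 152. This pair, which guides the alpha ring, fell, at log2 -1.36 (standard error 0.0679, adjusted p = 2.41e-08) and -0.76 (standard error 0.0609, adjusted p = 7.62e-07), with groups apart. PSMG4 had 144, 146 and 131 nuclear TPM with OTX2 overexpression, against 80.9, 78 and 77.8 in wild type, and its partner PSMG3 had 45, 38.6 and 34.5 against 27, 22.2 and 23.9. That second pair of core chaperones rose by log2 0.82 (standard error 0.0571, adjusted p = 2.77e-07) and 0.67 (standard error 0.106, adjusted p = 0.000163), again with groups apart. PSMG2 overlaps CEP76 in the annotation. Of the chaperones of the base, PSMD9 rose by 0.51 (adjusted p = 8.64e-05), PSMD5 fell, at -0.41 (adjusted p = 7.97e-05) and PSMD10 was not called at -0.07, with a sign that flips.

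All members together made up 1.07 to 1.11% of nuclear TPM with OTX2 overexpression and 0.976 to 1.04% in wild type. The median cap subunit stood at 0.373 to 0.417 of the median core subunit in overexpressing libraries and at 0.651 to 0.701 in wild type, and these ranges do not overlap. The summed cap, at 0.823 to 0.830 of the summed core with OTX2 overexpression and 0.812 to 0.825 in wild type, overlapped. The SD of log2 level over the 34 core and cap genes was 1.09 to 1.14 with OTX2 overexpression and 0.912 to 0.916 in wild type.

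**Figure D3:**
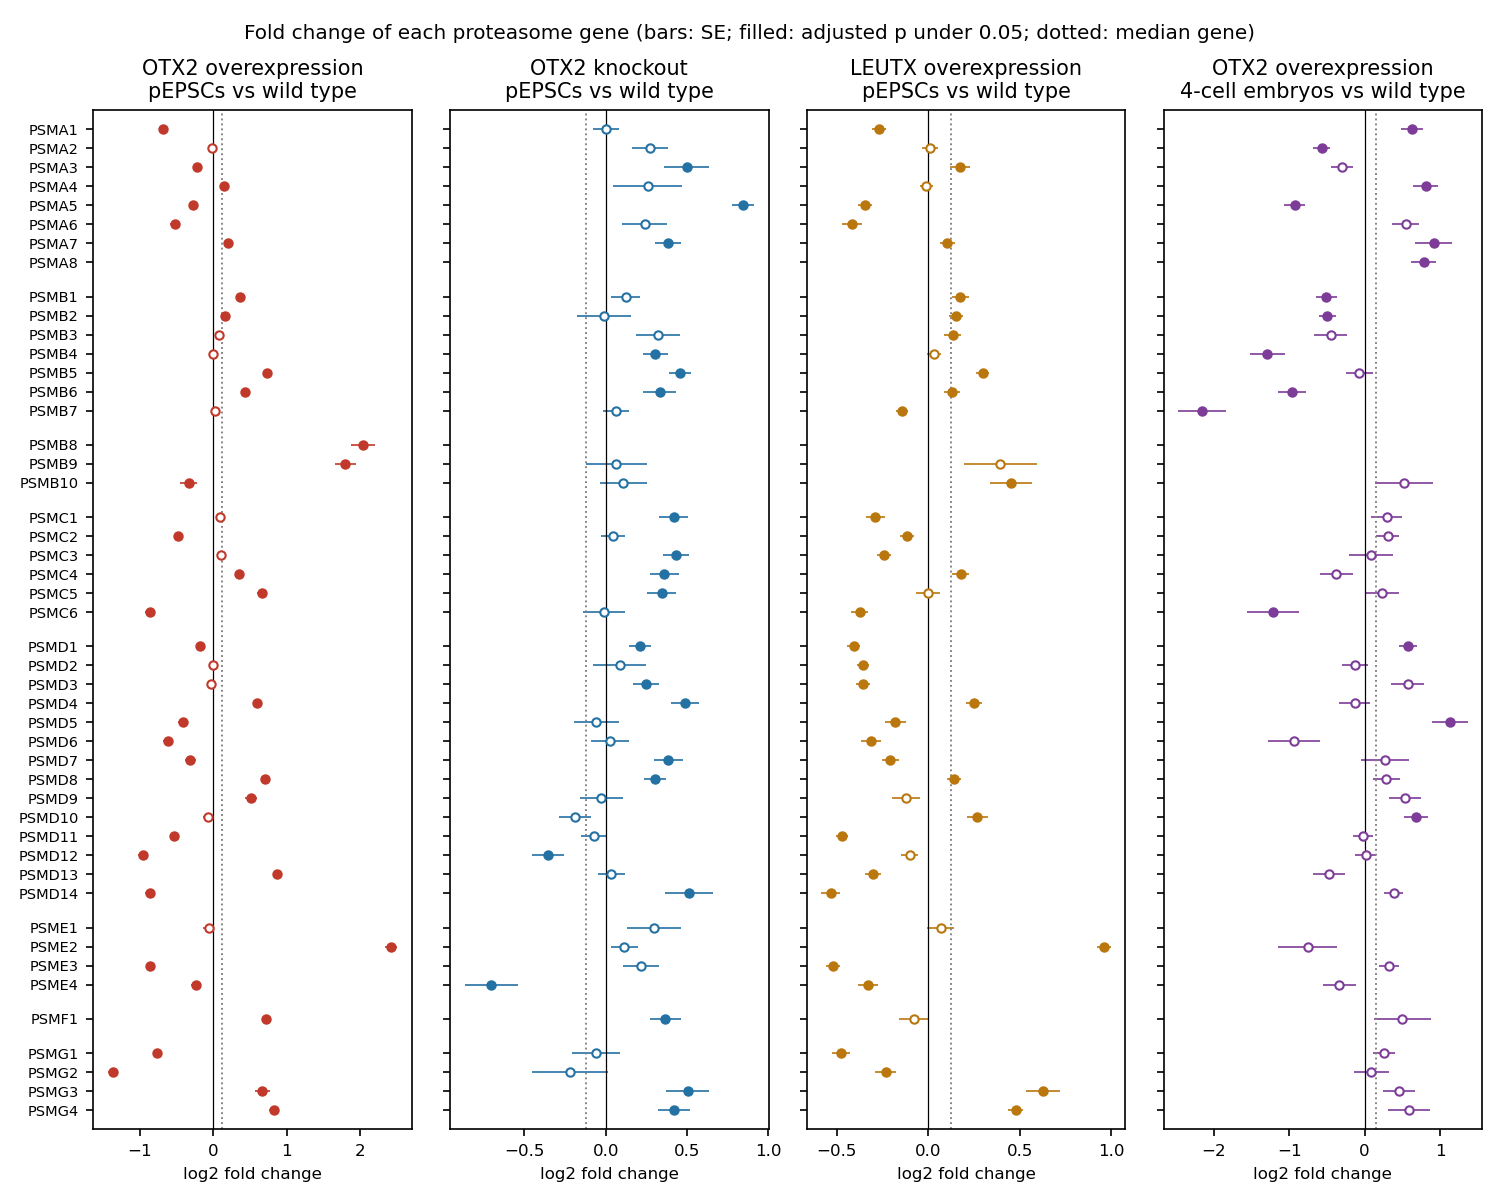
Log2 fold change with its SE for every member (rows, by class) in the 4 comparisons with wild type, each panel with its own x range; filled points were called and the dotted line is the median gene. With OTX2 overexpression members scatter from -1.36 to 2.42, with knockout 41 of 45 lie above the median gene, and with LEUTX overexpression most cap subunits lie below 0; members between about -0.15 and 0.15 can change sign under another scaling.

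With OTX2 knockout nearly all called members rose. The alpha subunit PSMA5 rose 1.80-fold, PSMB5, the ubiquitin receptor PSMD4 and the ATPases PSMC1 and PSMC3 rose 1.34- to 1.41-fold, and the activator PSME4 was the clearest fall. Of 45 members tested, 19 were called higher and 2 lower, a share of 46.7% beside 45.5% of all genes, of which 17.6% were higher and 27.9% lower. Relative to the median gene of -0.12, 41 of 45 members lay above it. The 22 higher and 3 lower members whose groups did not overlap stand beside 22.4% and 37.4% of all genes. Under all 4 scalings 16 of the 19 higher and 1 of the 2 lower members were called. No member was called at a 2-fold change or more, beside 4.15% of all genes higher and 6.74% lower.

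The count depended on single libraries. Knockout library 1, with 22.4% mitochondrial TPM, stands apart from libraries 3 and 4, and without it 24 members were higher and 7 lower. Without wild-type library 1, 2 or 3 the higher count was 9, 12 or 7, with 1 lower in each case, and without knockout library 3 or 4 it was 13 or 17, with 1 lower. The 7 rises of PSMA5, PSMA7, PSMB5, PSMC1, PSMC3, PSMD4 and PSMG4 and the fall of PSME4 were called whichever library was left out, whereas the other 12 rises and the fall of PSMD12 were each lost at least once.

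In the core, PSMA5 (chromosome 4, 110695429 to 110717308) had 889.7, 849 and 829 nuclear TPM with OTX2 knockout, against 483, 483 and 460.0 in wild type. All knockout libraries were far above wild type, at a log2 fold change of 0.85 (standard error 0.067, adjusted p = 0.000204), the largest of any member here. PSMA3 had 198, 138 and 145 nuclear TPM with OTX2 knockout, against 115, 112 and 109 in wild type, and PSMA7 had 610.2, 565 and 523 against 419, 439.7 and 438. Their groups did not overlap, with rises of 0.50 (adjusted p = 0.0243) and 0.39 (adjusted p = 0.00701), and PSMA3 was highest in knockout library 1. PSMA1, PSMA2, PSMA4 and PSMA6 were not called, at 0.00 to 0.28, so 3 of 7 alpha subunits were higher and 0 lower by limma, against 4 and 0 at an unadjusted p under 0.05.

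Of the beta subunits, 3 of 7 were higher and 0 lower, also at an unadjusted p under 0.05. PSMB5 had 416, 417 and 405 nuclear TPM with OTX2 knockout, against 299, 312 and 290.0 in wild type, a log2 fold change of 0.46 (standard error 0.0686, adjusted p = 0.00197). PSMB6 had 603, 536 and 482 nuclear TPM with OTX2 knockout, against 429, 450.0 and 405 in wild type, and PSMB4 had 629.7, 652 and 584 against 498, 529 and 482. These 3 genes had all knockout libraries above wild type, with rises of 0.33 (adjusted p = 0.0294) for PSMB6 and 0.30 (adjusted p = 0.0152) for PSMB4. PSMB7 was not called, at 0.06, with 612, 530.4 and 532 nuclear TPM in knockout libraries and 525, 549.8 and 523 in wild type. The replacement subunits PSMB9 and PSMB10 were not called either: PSMB9 had 1.1, 1.81 and 1.62 nuclear TPM with OTX2 knockout, against 1.18, 1.11 and 1.93 in wild type, and PSMB10 had 30.5, 29.5 and 31.6 against 32.3, 23.1 and 30.2.

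The base of the cap rose without exception among its calls. PSMC3 had 348, 389 and 386 nuclear TPM with OTX2 knockout, against 271, 289.6 and 270.2 in wild type, and PSMC1 had 426, 362 and 366 against 279, 302 and 281. PSMC4 had 286, 252 and 248 against 207, 214 and 190.2 and PSMC5 had 369, 368 and 342 against 275, 312 and 263. Knockout libraries were above wild type for all 4 ATPases, with log2 rises of 0.43 (adjusted p = 0.00428), 0.42 (adjusted p = 0.008), 0.36 (adjusted p = 0.0149) and 0.35 (adjusted p = 0.0167) in that order, and PSMC2 and PSMC6 were not called. PSMD4 had 384, 448 and 430.3 nuclear TPM with OTX2 knockout, against 284, 307 and 307 in wild type, a log2 fold change of 0.49 (standard error 0.0854, adjusted p = 0.0036), and PSMD1 rose by 0.21 (adjusted p = 0.0397).

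In the lid, PSMD3, PSMD7, PSMD8 and PSMD14 rose and PSMD12 fell. PSMD14 had 403, 267 and 305 nuclear TPM with OTX2 knockout, against 231, 229 and 212 in wild type, and its rise of 0.51 (standard error 0.148, adjusted p = 0.0261) was 0.35 (adjusted p = 0.00318) without the high first library and lost its call without any 1 of the wild-type libraries. PSMD12 had 104, 85.4 and 93.6 nuclear TPM with OTX2 knockout, against 125, 122 and 115 in wild type, and fell, at log2 -0.36 (adjusted p = 0.0231), a call that changes between scalings. PSMD13, the most raised lid gene with OTX2 overexpression, was not called here, at 0.03. The base chaperones PSMD5, PSMD9 and PSMD10 were not called by limma, also at an unadjusted p under 0.05.

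The activators did not rise with the rest. PSME4 (chromosome 3, 87231510 to 87337709) had 25.6, 37 and 39.5 nuclear TPM with OTX2 knockout, against 55.3, 54.6 and 55.5 in wild type. All knockout libraries were below wild type, lowest in library 1, at a log2 fold change of -0.70 (standard error 0.165, adjusted p = 0.012). PSME2 had 92.2, 102 and 97.7 nuclear TPM with OTX2 knockout, against 88.7, 89.9 and 90.8 in wild type, and was not called at 0.11 (adjusted p = 0.289), although its groups did not overlap. PSME1 had 126, 82.4 and 93.2 against 85.5, 85.1 and 71.1 and PSME3 had 193, 245 and 246 against 196, 189 and 199, both with overlapping groups and not called. PSMF1 rose by 0.37 (adjusted p = 0.0159), with 76.5, 68.7 and 66.3 nuclear TPM in knockout libraries and 54.3, 54.3 and 54.3 in wild type.

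The chaperone pair PSMG3 and PSMG4 rose and the pair PSMG1 and PSMG2 was not called. PSMG3 had 31.2, 40.0 and 34 nuclear TPM with OTX2 knockout, against 27, 22.2 and 23.9 in wild type, and PSMG4 had 94.9, 115 and 109.9 against 81, 78.1 and 77.9. Groups lay apart for both, with log2 rises of 0.50 (adjusted p = 0.0195) and 0.42 (adjusted p = 0.0113). PSMG1 had 193, 129.6 and 150.5 against 166, 169.5 and 152, and PSMG2 had 92.1, 51.5 and 48.7 against 68, 74.9 and 72.2. Both spread widely over the knockout libraries, with library 1 the highest, and overlapped wild type. All members together made up 1.30, 1.19 and 1.17% of nuclear TPM in the knockout libraries, against 0.977 to 1.04% in wild type. The 3 fibroblast markers listed of 6 summed to 28.8 to 48.8 nuclear TPM with OTX2 knockout, against 10.6 to 13.8 in wild type. The 3 oocyte and cleavage markers listed of 8 summed to 24.5 to 32.2 against 5.17 to 6.96. The 1 trophoblast marker listed of 4 stood at 5.01 to 8.13 against 0.839 to 1.78. Sums of the listed pluripotent-cell, endoderm and leukocyte markers overlapped wild type. The part of these shifts in the member changes was not tested.

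With LEUTX overexpression 13 of 20 cap genes fell and 4 rose, among them the base chaperones PSMD5 (lower) and PSMD10 (higher). Of 7 beta subunits 5 rose slightly, of which only PSMB5 was called under all 4 scalings, and PSMB7 fell. PSME2 rose 1.96-fold, the assembly gene PSMG3 rose 1.57-fold, and PSMD14, PSME3, PSMG1 and PSMD11 fell to 0.69 to 0.72 of wild type. Of 45 members tested, 15 were called higher and 21 lower, a share of 80.0% beside 70.3% of all genes, of which 42.8% were higher and 27.5% lower. Relative to the median gene of 0.12, 15 of 45 members lay above it, and under median-ratio scaling the split was 5 higher and 25 lower, so 16.7% of calls were higher in place of 41.7%. Under all 4 scalings 5 of the higher and 19 of the lower members were called. The 14 higher and 21 lower members whose groups did not overlap stand beside 44.4% and 29.4% of all genes, and no member was called at a 2-fold change or more, beside 10.6% of all genes higher and 3.8% lower.

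PSME2 was again the most raised member. It had 178, 176 and 173 nuclear TPM with LEUTX overexpression, against 88.6, 89.8 and 90.7 in wild type, with the groups far apart and a log2 fold change of 0.96 (standard error 0.0364, adjusted p = 4.9e-08). PSME1 had 80.8, 86.4 and 85.5 nuclear TPM with LEUTX overexpression, against 85.5, 85.1 and 71.1 in wild type, overlapped it and was not called at 0.07 (adjusted p = 0.421), a sign that flips between scalings. The ratio of PSME2 to PSME1 was 2.20, 2.03 and 2.02 in these libraries. PSME3 had 138, 138 and 131 nuclear TPM with LEUTX overexpression, against 196, 189 and 199 in wild type, and PSME4 had 45.3, 44.6 and 41.3 against 55.3, 54.6 and 55.5. Both fell with groups apart, at log2 -0.52 (adjusted p = 3.67e-06) and -0.33 (adjusted p = 0.000485). PSMF1 had 45.1, 56.5 and 53.2 against 54.3, 54.2 and 54.3, with overlapping groups, and was not called.

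The replacement subunit PSMB10 rose here, whereas its call as lower with OTX2 overexpression did not hold under every scaling or without each library. It had 41, 36.5 and 39.5 nuclear TPM with LEUTX overexpression, against 32.3, 23.1 and 30.2 in wild type, a log2 fold change of 0.45 (standard error 0.114, adjusted p = 0.00604), with all LEUTX libraries above wild type. In the direct contrast, PSMB10 was higher with LEUTX than with OTX2 overexpression by log2 0.79 (adjusted p = 5.44e-05). PSMB9 had 2.39, 2.78 and 1.38 nuclear TPM with LEUTX overexpression, against 1.18, 1.11 and 1.93 in wild type, with overlapping groups, and was not called at 0.39 (adjusted p = 0.106). Of the 5 leukocyte markers only CD74 was listed in this table, at 1.51 to 2.71 nuclear TPM with LEUTX overexpression and 1.20 to 2.73 in wild type, ranges that overlap. Other marker sums did shift. The 6 pluripotent-cell markers summed to 3235 to 3317 nuclear TPM against 4290 to 4533, and the 3 fibroblast markers listed of 6 to 3.90 to 6.05 against 10.6 to 13.8. The 3 oocyte and cleavage markers listed of 8 summed to 13.6 to 19.0 against 5.16 to 6.96. FOXA2, the only endoderm marker listed, stood at 0 with LEUTX overexpression, against 21.7 to 26.6 in wild type. The part of these shifts in the member changes was not tested.

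In the core, 5 of 7 beta subunits were higher and 1 lower, all by small amounts, beside 42.8% and 27.5% of all genes. The rises other than that of PSMB5 were at 0.13 to 0.18, near the median gene of 0.12. PSMB5 had 378, 364 and 365 nuclear TPM with LEUTX overexpression, against 299, 312 and 289.9 in wild type, a log2 fold change of 0.30 (standard error 0.0371, adjusted p = 8.76e-05), and this was the only beta-ring rise called under all 4 scalings. PSMB1 had 359, 371 and 379.9 nuclear TPM with LEUTX overexpression, against 336, 343 and 304 in wild type, and PSMB6 had 457, 462 and 485 against 428, 449.9 and 404. Their rises of 0.18 (adjusted p = 0.00922) and 0.13 (adjusted p = 0.0244) were lost under another scaling, as were those of PSMB2 and PSMB3 at 0.15 and 0.13. PSMB7 had 480.4, 478 and 488 nuclear TPM with LEUTX overexpression, against 524, 549.7 and 523 in wild type, and fell, at log2 -0.14 (adjusted p = 0.00314) with groups apart, a call that also changes between scalings. PSMB4 was not called, at 0.03 with a sign that flips.

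Of the alpha subunits, 2 of 7 were higher and 3 lower. PSMA6 had 239, 238 and 257 nuclear TPM with LEUTX overexpression, against 322, 351 and 308 in wild type, and PSMA5 had 378, 362 and 384 against 483, 483 and 459.9. PSMA1 was lower as well, at -0.27, and the groups of all 3 lay apart, with log2 changes of -0.42 (adjusted p = 9.95e-05) for PSMA6 and -0.34 (adjusted p = 2.81e-05) for PSMA5. PSMA3 had 134, 116 and 130.2 nuclear TPM with LEUTX overexpression, against 115, 112 and 109 in wild type, and PSMA7 had 475, 439 and 479.8 against 419, 439.6 and 437. The rise of PSMA3 at 0.17 (adjusted p = 0.0197) was lost under another scaling, and that of PSMA7 at 0.10 (adjusted p = 0.0459), whose groups overlap, turned to -0.018 under median-ratio scaling. PSMA2 and PSMA4 were at 0.01 and -0.01, not called, with signs that flip.

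Falls were in both base and lid of the cap. Of 6 ATPases, PSMC1, PSMC2, PSMC3 and PSMC6 fell and PSMC4 rose. PSMC6 had 184, 193 and 188 nuclear TPM with LEUTX overexpression, against 257, 244 and 232 in wild type, and PSMC1 had 247, 217 and 241 against 278, 302 and 280.5. These falls were log2 -0.37 (adjusted p = 6e-05) and -0.29 (adjusted p = 0.00115), with groups apart. PSMC4 had 235, 227 and 228 nuclear TPM with LEUTX overexpression, against 207, 214 and 190.1 in wild type, and its rise of 0.18 (adjusted p = 0.00756) and the fall of PSMC2 at -0.12 (adjusted p = 0.0209) change between scalings. PSMC5 had 277, 271 and 299.7 against 275, 312 and 263 and overlapped wild type.

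The lid had 1 subunit higher and 6 lower of 8. PSMD14 had 150.3, 149 and 164 nuclear TPM with LEUTX overexpression, against 231, 229 and 212 in wild type, and PSMD11 had 178, 175 and 171 against 242, 239 and 245. Both fell with groups apart, at log2 -0.53 (standard error 0.0506, adjusted p = 1.47e-05) and -0.47 (standard error 0.0333, adjusted p = 2.23e-06). PSMD13 fell too, at log2 -0.30 (adjusted p = 0.000229), although it was the lid gene that rose most with OTX2 overexpression. PSMD12, which fell most with OTX2 overexpression, was not called here, at -0.10 (adjusted p = 0.0809). The scaffolds PSMD1 and PSMD2 fell, at -0.41 and -0.35. PSMD10 had 69.7, 70.3 and 66.6 nuclear TPM with LEUTX overexpression, against 58.2, 59.5 and 53.4 in wild type, and PSMD4 had 373, 343 and 353 against 284, 307 and 307, with groups apart and rises of 0.27 (adjusted p = 0.00193) and 0.25 (adjusted p = 0.000868) that change between scalings.

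The assembly pairs again parted, PSMG3 and PSMG4 higher and PSMG1 and PSMG2 lower. PSMG3 had 39.2, 41.3 and 34 nuclear TPM with LEUTX overexpression, against 27, 22.2 and 23.9 in wild type, and PSMG4 had 111, 111 and 109.6 against 81, 78.1 and 77.8. They rose by log2 0.63 (standard error 0.0935, adjusted p = 0.000273) and 0.48 (standard error 0.0399, adjusted p = 6.53e-06), with groups apart. PSMG1 had 119, 116 and 115 nuclear TPM with LEUTX overexpression, against 166, 169.5 and 152 in wild type, and PSMG2 had 64.1, 58.2 and 60.4 against 68, 74.9 and 72.1. They fell, at log2 -0.48 (standard error 0.0476, adjusted p = 2.07e-05) and -0.23 (standard error 0.0567, adjusted p = 0.00503), with groups apart. Members together made up 0.947 to 0.973% of nuclear TPM with LEUTX overexpression, against 0.977 to 1.04% in wild type, and the median cap subunit stood at 0.479 to 0.491 of the median core subunit, against 0.651 to 0.701. The summed cap stood at 0.714 to 0.734 of the summed core, against 0.812 to 0.825. The rises of PSMA3, PSMA7, PSMB3 and PSMB6 and the falls of PSMC2 and PSMD5 were each lost without at least 1 library.

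The 3 engineered lines were also set against each other, over the 11954 genes tested in all 3 pEPSC tables. Wild-type levels are not part of these differences, but the wild-type libraries were in the model and entered its variance and gene filter. Between OTX2 overexpression and OTX2 knockout, 11 of 45 members were higher and 24 lower with overexpression, beside 39.8% and 28.7% of all genes (68.5% together), and under median-ratio scaling 7 were higher and 26 lower. PSME2 at 2.31 (adjusted p = 5.01e-10), PSMB9 at 1.74 (adjusted p = 5.28e-06) and PSMD13 at 0.84 (adjusted p = 1.58e-07) were the furthest above the knockout. PSMD14 at -1.37 (adjusted p = 1.17e-06), PSMG2 at -1.14 (adjusted p = 0.000129), PSMA5 at -1.12 (adjusted p = 8.24e-09) and PSME3 at -1.07 (adjusted p = 2.83e-07) were the furthest below. Of 45 members, 7 of the higher and 21 of the lower calls held under all 4 scalings.

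Between LEUTX and OTX2 overexpression, 12 of 45 members were higher and 19 lower with LEUTX, beside 40.0% and 31.2% of all genes (71.1% together), and on TPM as deposited 8 were higher and 21 lower. PSMG2 at 1.13 (adjusted p = 0.000125), PSMD12 at 0.86 (adjusted p = 1.45e-06) and PSMB10 were the furthest above, and PSME2 at -1.46 (adjusted p = 2.13e-08), PSMB9 at -1.41 (adjusted p = 3.03e-05) and PSMD13 at -1.17 (adjusted p = 9.14e-09) the furthest below. The direct contrast thus placed PSME2 higher with OTX2 than with LEUTX overexpression, though it rose in both lines. Between LEUTX overexpression and OTX2 knockout, 5 of 45 members were higher and 29 lower with LEUTX, beside 46.2% and 22.2% of all genes (68.4% together), where the median gene lay at 0.25. Without knockout library 1 the higher count was 8, and without LEUTX library 1 or 2 it was 3. PSMA5 at -1.18 (adjusted p = 6.75e-09) and PSMD14 at -1.04 (adjusted p = 1.37e-05) were furthest below and PSME2 at 0.85 (adjusted p = 2.69e-06) furthest above.

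In 4-cell embryos with OTX2 overexpression 5 of 7 beta subunits fell, and 4 alpha subunits and the base chaperones PSMD5 and PSMD10 rose. PSMB7 fell to 0.20 of wild type, PSMB4, PSMB6 and PSMA5 fell to 0.41 to 0.52 of it, and the base chaperone PSMD5 rose 2.30-fold. Of 44 members tested, 7 were called higher and 8 lower, a share of 34.1% beside 16.2% of all genes, of which 7.63% were higher and 8.59% lower. Relative to the median gene of 0.16, 22 of 44 members lay above it, and on TPM as deposited the split was 12 higher and 6 lower, so 66.7% of calls were higher in place of 46.7%. The 12 higher and 10 lower members whose groups did not overlap stand beside 25.1% and 13.5% of all genes. Under all 4 scalings 5 higher and 5 lower members were called. PSMD5 rose and PSMB7, PSMB4 and PSMC6 fell at least 2-fold, beside 1.15% of all genes higher and 6.59% lower.

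Leaving out single libraries moved these counts. Without overexpressing library 2 or wild-type library 2, limma called 0 members higher and 3 lower in each case, while at an unadjusted p under 0.05 the counts were 7 and 8 without the first and 9 and 9 without the second. Without overexpressing library 3 the counts were 2 and 4, without wild-type library 3 they were 2 and 7, without wild-type library 1 they were 6 and 8, and without overexpressing library 1 they were 13 and 9. The falls of PSMB7, PSMB4 and PSMA5 were called whichever library was left out, and the other 12 calls were each lost at least once.

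Of the 7 constitutive beta subunits, 5 were lower and 0 higher, also at an unadjusted p under 0.05. PSMB7, the trypsin-like subunit (chromosome 1, 265172257 to 265235389), had 24.9, 21.1 and 20.6 nuclear TPM in OTX2-overexpressing embryos, against 61.9, 99.4 and 169.5 in wild-type embryos. The wild-type libraries spread widely and yet all lay above the overexpressing ones, at a log2 fold change of -2.15 (standard error 0.32, adjusted p = 0.00429). PSMB4 had 23.8, 33 and 43.8 nuclear TPM in OTX2-overexpressing embryos, against 66.3, 81.9 and 97.5 in wild-type embryos, a log2 fold change of -1.29 (standard error 0.236, adjusted p = 0.00967). PSMB6, the caspase-like subunit, had 106, 132 and 177 nuclear TPM in OTX2-overexpressing embryos, against 258, 278 and 258 in wild-type embryos, a log2 fold change of -0.96 (standard error 0.184, adjusted p = 0.0116). The groups of both genes lay apart.

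The very abundant PSMB2 had 1840, 1911 and 1740 nuclear TPM in OTX2-overexpressing embryos, against 2784, 2668 and 2310 in wild-type embryos, and PSMB1 had 203, 173 and 182 against 304, 267 and 229. Their groups did not overlap, and their calls at -0.50 (adjusted p = 0.0231) and -0.51 (adjusted p = 0.0417) did not hold under every scaling. PSMB5, the chymotrypsin-like subunit, had 25.1, 28.8 and 30.0 nuclear TPM in OTX2-overexpressing embryos, against 32.1, 23.3 and 33.7 in wild-type embryos. Its groups overlapped and it was not called at -0.07 (adjusted p = 0.804), with a sign that flips. PSMB3 was not called either, at -0.45 (adjusted p = 0.182). The only replacement subunit in this table, PSMB10, had 3.89, 7.84 and 2.71 nuclear TPM in OTX2-overexpressing embryos, against 4.68, 1.72 and 2.49 in wild-type embryos, overlapped and was not called.

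The alpha ring moved in both directions, with 4 of 8 subunits higher and 2 lower. PSMA5 had 289.5, 233 and 244 nuclear TPM in OTX2-overexpressing embryos, against 447, 564 and 453 in wild-type embryos, and PSMA2 had 845, 837 and 784 against 1107, 1340 and 1227. They fell, at log2 -0.93 (standard error 0.142, adjusted p = 0.00471) and -0.57 (standard error 0.114, adjusted p = 0.0141), with groups apart. PSMA7 had 169, 227 and 343 nuclear TPM in OTX2-overexpressing embryos, against 111, 122 and 144 in wild-type embryos, rising over the overexpressing libraries' wide spread by log2 0.91 (adjusted p = 0.0391), a call that changes between scalings. PSMA4 had 233, 214 and 202 nuclear TPM in OTX2-overexpressing embryos, against 155, 116 and 103 in wild-type embryos, a log2 fold change of 0.81 (standard error 0.166, adjusted p = 0.0158). PSMA8, the germ-cell alternative to PSMA7, had 83, 71 and 57 nuclear TPM in OTX2-overexpressing embryos, against 43, 37.9 and 39.4 in wild-type embryos, a log2 fold change of 0.78 (standard error 0.163, adjusted p = 0.0162). All overexpressing libraries were above wild type for these 3 genes and for PSMA1, which rose by 0.63 (adjusted p = 0.0213). PSMA8 was not analysed in pEPSCs.

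In the cap, 3 of 14 non-ATPases were higher and 0 lower, and 1 of 6 ATPases was lower. Of the higher ones, PSMD5 and PSMD10 are assembly chaperones of the base. PSMD5 (chromosome 1, 260847403 to 260868767) had 64.7, 109 and 129 nuclear TPM in OTX2-overexpressing embryos, against 44.4, 42.9 and 44.7 in wild-type embryos. All overexpressing libraries were above the tight wild-type group, at a log2 fold change of 1.12 (standard error 0.237, adjusted p = 0.0173). PSMD10, another chaperone of the base, had 168, 225 and 242 nuclear TPM in OTX2-overexpressing embryos, against 125, 122 and 146 in wild-type embryos, and the scaffold PSMD1 had 164, 183 and 178 against 106, 123 and 124. They rose by 0.68 (adjusted p = 0.0268) and 0.57 (adjusted p = 0.0171), with groups apart, and the call of PSMD1 changes between scalings. PSMC6 had 13.2, 8.34 and 5.39 nuclear TPM in OTX2-overexpressing embryos, against 14.5, 30.6 and 20.7 in wild-type embryos, and its call as lower at -1.22 (adjusted p = 0.0485) also changes between scalings. For non-ATPases the counts at an unadjusted p under 0.05 were 6 and 1. None of the 8 lid subunits was called by limma, and at an unadjusted p under 0.05 the lid counts were 2 higher and 1 lower.

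Activators, the inhibitor and the assembly factors were not called in embryos by limma. At an unadjusted p under 0.05, PSME3 alone among these 8 genes was higher and none was lower. PSME3 had 66.3, 70.0 and 80.9 nuclear TPM in OTX2-overexpressing embryos, against 56.1, 56.2 and 60.2 in wild-type embryos, at 0.32 (adjusted p = 0.123), and PSME4 had 142, 93.7 and 75.6 against 123, 129.7 and 128, at -0.34 (adjusted p = 0.307). PSME2, the most raised member in pEPSCs, had 2, 1.07 and 1.53 nuclear TPM in OTX2-overexpressing embryos, against 1.27, 5.44 and 4.15 in wild-type embryos. These few TPM overlapped, and the value of -0.75 (adjusted p = 0.211) was not called. PSMF1 had 10.9, 18.7 and 29.6 against 12.1, 8.74 and 19.1. PSMG1 had 519.7, 563 and 597 nuclear TPM in OTX2-overexpressing embryos, against 539.7, 382 and 498 in wild-type embryos, and PSMG2 had 10.5, 7.94 and 14.6 against 8.63, 10.3 and 11.3. PSMG3 had 19.2, 19.8 and 16 against 17.7, 11.1 and 11.2, and PSMG4 had 9.82, 18.2 and 19.1 against 7.42, 10.4 and 11.9. All 4 assembly factors overlapped wild type. PSME1, PSMB8 and PSMB9 were not analysed in embryos.

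Members together made up 0.633 to 0.678% of nuclear TPM in OTX2-overexpressing embryos and 0.746 to 0.775% in wild-type embryos. The summed cap stood at 0.305 to 0.382 of the summed core in OTX2-overexpressing embryos and at 0.197 to 0.237 in wild-type embryos, whereas the ratios of their medians overlapped, at 0.276 to 0.287 and 0.258 to 0.291. The oocyte and cleavage markers summed to 7081 to 7426 nuclear TPM in OTX2-overexpressing embryos, against 5426 to 6373 in wild type, and LEUTX itself stood at 167, 27.5 and 25.9 against 782, 1261 and 1494. The part of these shifts in the subunit changes was not tested. None of the 5 cumulus and granulosa, 4 trophoblast or 5 leukocyte markers was listed in embryos.

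**Figure D4:**
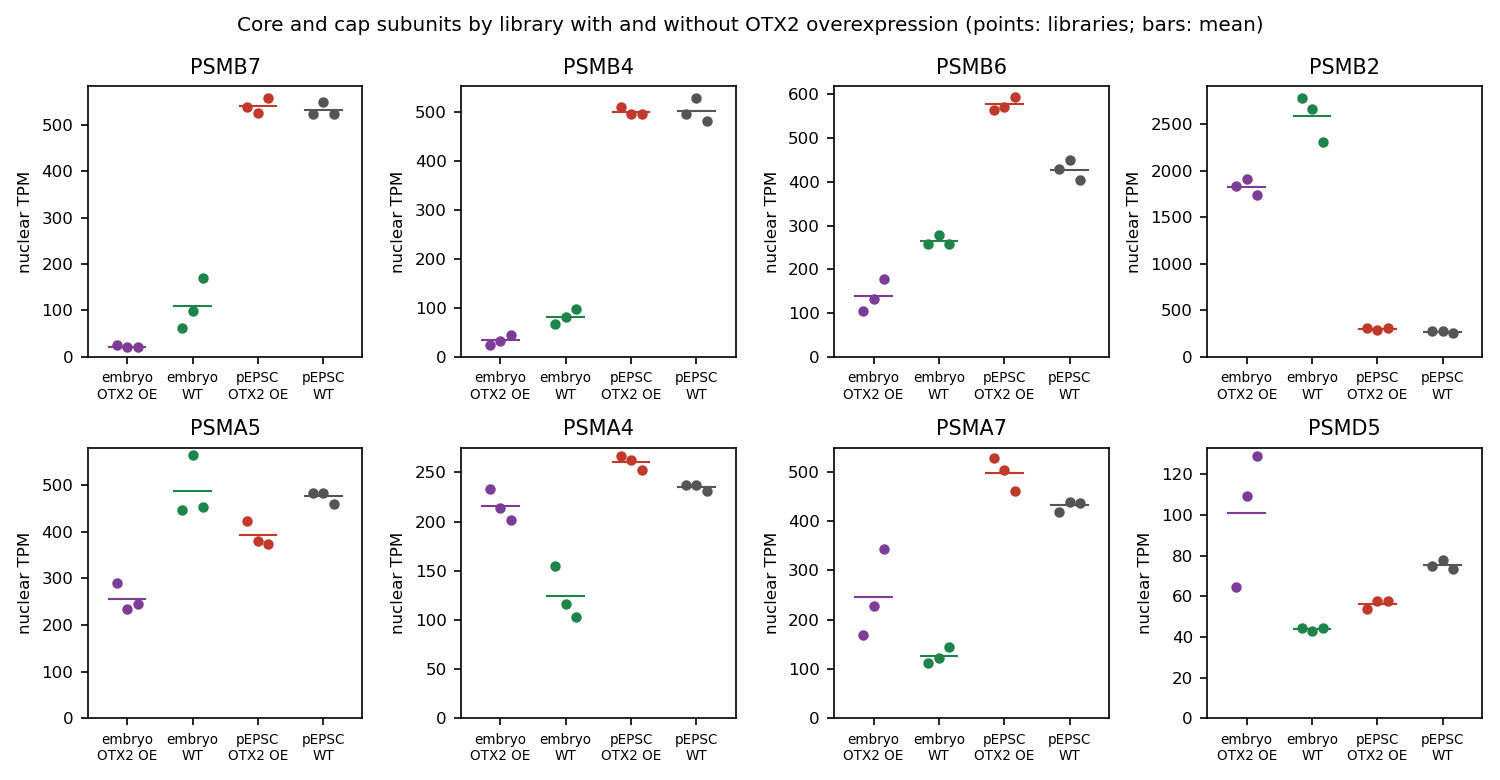
Nuclear TPM of PSMB7, PSMB4, PSMB6, PSMB2, PSMA5, PSMA4, PSMA7 and PSMD5 in every library of OTX2-overexpressing and wild-type embryos and of OTX2-overexpressing and wild-type pEPSCs. PSMB7 lies at 20.6 to 24.9 in OTX2-overexpressing embryos, against 61.9 to 169.5 in wild-type embryos, and overlaps wild type in pEPSCs; embryo and pEPSC levels were normalized separately.

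The effect of OTX2 overexpression itself was compared between embryos and pEPSCs with an interaction term over the 7442 genes tested in both tables. The model gave each gene a single residual variance over embryo and pEPSC libraries. Its p-values may therefore be too small where embryo libraries spread more than pEPSC libraries. Of 43 members, 15 were called with a more positive effect in embryos and 12 with a more negative one, beside 41.3% and 21.1% of all genes, 62.4% together, and under quantile normalization the counts were 11 and 15. The median gene differed by 0.32, and 11 members in each direction were called under all 4 scalings. The beta ring leaned to the negative side, with PSMB7 at -2.17 (adjusted p = 0.000255), PSMB6 at -1.40 (adjusted p = 0.000107) and PSMB4 at -1.28 (adjusted p = 0.0011). PSME2 had the most negative value, -3.17 (adjusted p = 4.7e-05), which is not called under every scaling and is at a few TPM in embryos. PSMD5 at 1.54 (adjusted p = 0.000341), PSMG2 at 1.45 (adjusted p = 0.000264), PSMA1 at 1.31 (adjusted p = 1.7e-05) and PSMD14 at 1.24 (adjusted p = 1.9e-05) had the most positive values. PSMB6, PSMB1 and PSMB2 were lower in embryos and higher in pEPSCs, and PSMD1, PSMA1 and PSMD5 were higher in embryos and lower in pEPSCs. Over the 43 members, the fold changes of embryos and pEPSCs had a Spearman correlation of -0.08, against 0.06 over all 7442 genes, as a description over genes that share libraries.

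Genes around the proteasome were described with lists of factors known from the pathway. Over all genes, 45.4% were called higher and 36.8% lower with OTX2 overexpression, and 17.6% and 27.9% with OTX2 knockout. With LEUTX overexpression these shares were 42.8% and 27.5%, and in OTX2-overexpressing embryos 7.63% and 8.59%. Every list count below is to be read beside them. Of 10 proteasome-associated factors, 3 were higher and 5 lower with OTX2 overexpression, 2 and 1 with OTX2 knockout and 0 and 5 with LEUTX overexpression, and of 7 in embryos 3 were higher and 1 lower. The cap-bound deubiquitinases USP14 and UCHL5 fell with OTX2 overexpression in pEPSCs, at log2 -1.20 (adjusted p = 2.83e-08) and -1.16 (adjusted p = 1.52e-08). The cap ubiquitin receptor ADRM1 rose with OTX2 knockout, at 0.66 (adjusted p = 0.00149), and the small lid protein SEM1 fell in OTX2-overexpressing embryos, at -2.36 (adjusted p = 0.00339). NFE2L1 is the transcription factor that raises proteasome genes when proteasome activity is short. With OTX2 overexpression NFE2L1 rose by 1.56 (adjusted p = 1.86e-09) while its relative NFE2L3 fell, at -2.43 (adjusted p = 7.57e-09). Of the 10 genes of that control list, 4 were higher and 4 lower with OTX2 overexpression, 3 and 1 with knockout and 4 and 5 with LEUTX overexpression, and of 7 in embryos 2 and 1.

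Of 6 ubiquitin and E1 enzyme genes, 5 were higher and 1 lower with OTX2 overexpression, 2 and 1 with OTX2 knockout, 4 and 0 with LEUTX overexpression, and 0 and 3 in OTX2-overexpressing embryos. The activating enzyme UBA1 rose by 2.07 (adjusted p = 5.8e-11) and its alternative UBA6 fell, at -1.41 (adjusted p = 2.4e-07) with OTX2 overexpression in pEPSCs. In OTX2-overexpressing embryos the ubiquitin genes RPS27A and UBB fell, at -1.98 and -1.06. Of the shuttle factors, the segregase VCP fell most in OTX2-overexpressing embryos, at -2.50 (adjusted p = 0.0118), and 0 of the 7 tested there were higher and 1 lower. In pEPSCs the 9 shuttle genes tested gave 6 higher and 2 lower with OTX2 overexpression, 3 and 1 with OTX2 knockout and 2 and 3 with LEUTX overexpression.

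Antigen presentation and interferon genes, whose products use the peptides of the immunoproteasome, were mostly higher in pEPSCs. Of 10 tested, 7 were higher and 2 lower with OTX2 overexpression, beside 45.4% and 36.8% of all genes. The counts were 6 and 1 with OTX2 knockout, beside 17.6% and 27.9%, and 7 and 2 with LEUTX overexpression, beside 42.8% and 27.5%. B2M, the light chain of the class I molecule, rose by 0.94 (adjusted p = 3.63e-07) with OTX2 overexpression, 0.83 (adjusted p = 0.00106) with OTX2 knockout and 1.28 (adjusted p = 5.17e-08) with LEUTX overexpression. The class I heavy chain gene SLA-1 rose by 1.31, 1.35 and 1.42 in the same order, though its reads may be shared with near-identical copies. PSME2 thus rose beside this list with OTX2 and LEUTX overexpression, while with OTX2 knockout 6 of the list were higher and PSME2 and PSMB9 were not called. In embryos 4 of the list were tested and none was called by limma.

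Other protein complexes were set beside the proteasome for scale, and the shares over all genes given above apply to their counts too. Of the 8 subunits of the CCT chaperonin, 0 were higher and 7 lower with OTX2 overexpression, 0 and 4 with OTX2 knockout, 0 and 7 with LEUTX overexpression and 0 and 1 in OTX2-overexpressing embryos. The COP9 signalosome, a relative of the lid, gave 4 higher and 3 lower of 8 with OTX2 overexpression, 3 and 1 with OTX2 knockout and 0 and 3 with LEUTX overexpression, and 2 and 0 of 7 in embryos. Of 7 heat-shock chaperones, 3 were higher and 4 lower with OTX2 overexpression, led by BAG3 at 2.22 (adjusted p = 1.2e-08), 1 and 0 with OTX2 knockout, 2 and 4 with LEUTX overexpression, and 0 and 2 in embryos. At an unadjusted p under 0.05 the counts of 0 in all these lists stayed at 0, except that 1 CCT gene was higher with OTX2 knockout and 3 in embryos, 1 heat-shock gene was lower with OTX2 knockout and 1 shuttle gene was higher in embryos.

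In pEPSCs the members called higher sat in shorter genes than those called lower, as did all genes called. Their median genomic span was 7.50 kb against 22.5 kb for the lower ones with OTX2 overexpression, and 7.65 against 15.8 kb with LEUTX overexpression, beside 19.4 against 39.3 kb and 23.5 against 30.6 kb over all genes called. With OTX2 knockout it was 8.23 kb against 66.1 kb, the second value over only 2 genes, beside 10.8 against 48.9 kb over all genes called. Over members, span and fold change had a Spearman correlation of -0.44 with OTX2 overexpression (46 members), -0.35 with OTX2 knockout (45) and -0.56 with LEUTX overexpression (45), against -0.23, -0.39 and -0.08 over all genes tested. In embryos it was -0.01 over 44 members and 0.05 over all genes, and the median span was 15.2 kb for the higher and 19.0 kb for the lower members, beside 27.6 and 9.28 kb over all genes called, the other way round. These are descriptions over genes that share libraries, and the part of gene length in the calls was not tested.

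**Figure D5:**
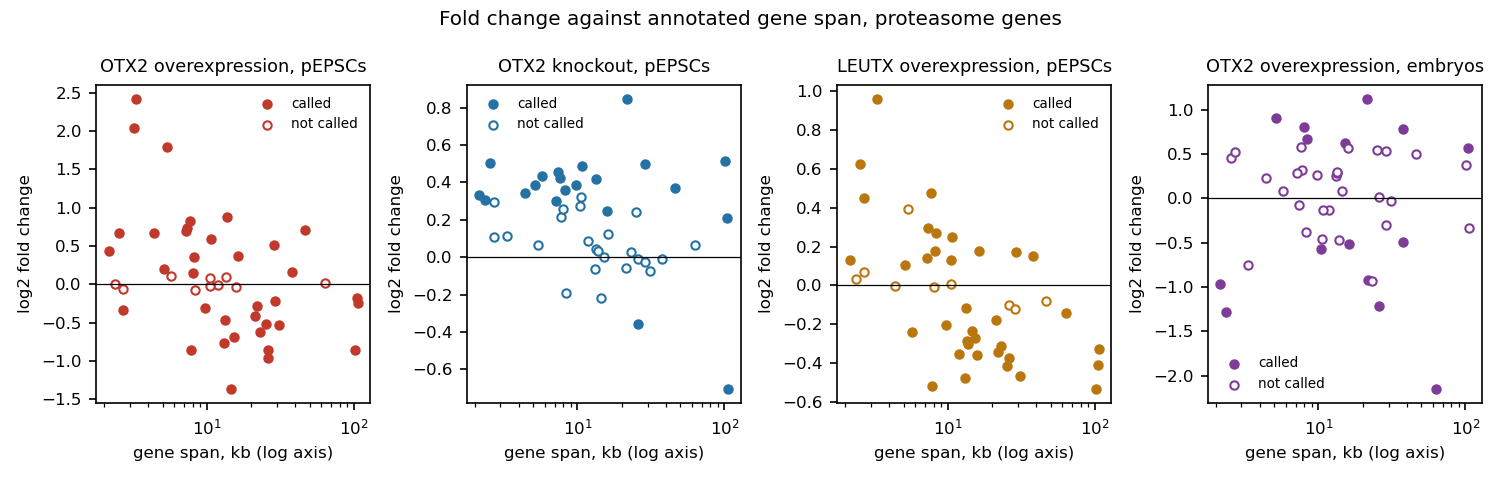
Log2 fold change of each member against the genomic span of its gene in kb (log axis), 1 point per gene, 1 panel per comparison with wild type. Short genes lie higher than long ones in the 3 pEPSC comparisons (Spearman -0.44, -0.35 and -0.56) and not in embryos (-0.01).

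PSMC3IP, the recombination factor taken by its name, had 39.9, 39.6 and 34.1 nuclear TPM with OTX2 overexpression, against 43.6, 48.8 and 53.6 in wild type, and fell, at log2 -0.35 (standard error 0.0916, adjusted p = 0.00445), although it overlaps MLX in the annotation. It was not called with OTX2 knockout at 0.16 (adjusted p = 0.292), with LEUTX overexpression at -0.06 (adjusted p = 0.551) or in OTX2-overexpressing embryos at 0.79 (adjusted p = 0.0544), where it had 13.5, 17.3 and 15.2 nuclear TPM against 12, 6.84 and 7.08.

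The authors' deposited table marks 3 of the 46 members as up (PSMB8, PSMB9 and PSME2) and 4 as down (PSMD12, PSMD14, PSME3 and PSMG2) with OTX2 overexpression in pEPSCs, where every marked gene of the table changed at least 2-fold. Over all genes the authors' deposited table marks 20.7% as up and 16.8% as down, and at the authors' adjusted p under 0.05 it lists 15 members as higher and 23 as lower, beside 38.8% and 42% of all genes. For PSME2 the authors' deposited table gives a log2 fold change of 2.27. In the authors' deposited tables no member is marked with OTX2 knockout or LEUTX overexpression, although at the authors' adjusted p under 0.05 they list 21 members as higher and 1 as lower with knockout, beside 24.6% and 24.4% of all genes, and 5 as higher and 24 as lower with LEUTX overexpression, beside 33.5% and 35.6%. At the authors' unadjusted p under 0.05, from the authors' deposited tables, these are 24 and 1 with knockout and 5 and 24 with LEUTX overexpression. In embryos the authors' deposited table, whose marks have no such minimum, gives 8 members up and 13 down of 44, beside 10.8% and 16.6% of all genes. The marks in the authors' deposited table hold all 15 members called here apart from PSMA8, and add PSMD14 and PSMD9 as up and PSMA3, PSMD6, PSMD13, PSME2 and PSME4 as down.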

How the data were processed

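The series holds 35 pig samples, of which 18 bulk RNA libraries, 3 in each of 6 groups, are in the tables used here. The other samples were not used here. Groups come from the sample titles, and columns of per-sample values with no mapping numbered 0. Each of the 4 deposited tables gives TPM computed by the authors per gene for 6 libraries, summing to 997004 to 998040 per library. The tables also hold, per the file headers, the authors' log2 fold change with its standard error, p-value and adjusted p-value, their test statistic, a score, and their mean normalized count, which is used here as no signal. Per the submitters' processing notes the tools included STAR 2.7.3, featureCounts 2.0.0, StringTie 2.1.4, Trim Galore 0.6.6 and DESeq2, with no role given, and the build was Sscrofa11.1. Whether counting used strand is not given in the sources used here. Wild-type pEPSC columns are identical in the 3 pEPSC tables.

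From the TPM, mitochondrially encoded genes were left out and each library was rescaled to 1000000. Genes with at least 1 nuclear TPM in at least 3 libraries were tested on log2(nuclear TPM + 1), 13252, 12258, 12547 and 8603 genes for OTX2 overexpression, OTX2 knockout and LEUTX overexpression in pEPSCs and for embryos. A separate fit per table used limma 3.58.1 in R 4.3.3 with a trended prior, robust against outlying genes through statmod 1.5.0, two-sided, with Benjamini-Hochberg adjustment over all genes. Contrasts between the engineered lines used 1 model of the 12 pEPSC libraries, and the interaction used 1 model of the 12 OTX2 overexpression and wild-type libraries. The fit was tested on simulated data. Values were tabulated in Python 3.11.15 (numpy 2.4.6, pandas 2.3.3, scipy 1.17.1) and plotted with matplotlib 3.10.9. Alternatives were TPM as deposited, median-ratio and quantile scaling, a pseudocount of 0.1, no filter, each library left out, a replicate block and a fit over the 12 pEPSC libraries.

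The members, the gene lists and the tests were chosen with earlier results of these data known. Named with values in every library are, per comparison and class, the members of highest and lowest fold change among those called, the catalytic pairs and all PSME, PSMF and PSMG genes. Coordinates and spans come from RefSeq for Sscrofa11.1, where 49 genes fit the symbol pattern; PSMB11 was not analysed. TPM keeps no depth, so no interval or detection limit was computed. Individual results of 2 listed genes are not reported here.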

Additional observations from a re-analysis of the deposited data

Results flagged for a closer look

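The effect of OTX2 overexpression differed between 4-cell embryos and pEPSCs for 27 of 43 proteasome members by limma's interaction test, a share of 62.8% that is near the 62.4% of all genes tested. Values are the log2 effect in embryos minus that in pEPSCs, and the median gene lay at 0.32. The more negative effects in embryos were in PSME2 at -3.17, PSMB7 at -2.17, PSMB6 at -1.40, PSMD13 at -1.34 and PSMB4 at -1.28. Smaller ones were in PSMB1 at -0.87, PSMB5 at -0.80, PSMC4 at -0.73, PSMD4 at -0.72, PSMB2 at -0.66, PSMA5 at -0.65 and PSMA2 at -0.55. Of the 7 constitutive beta subunits, 6 are among these. The more positive effects in embryos were in PSMD5 at 1.54, PSMG2 at 1.45, PSMA1 at 1.31, PSMD14 at 1.24, PSME3 at 1.19, PSMA6 at 1.07 and PSMG1 at 1.02. Smaller ones were in PSMD12 at 0.97, PSMC2 at 0.77, PSMD1 at 0.75, PSMD10 at 0.75, PSMA7 at 0.71, PSMA4 at 0.66, PSMD3 at 0.61 and PSMD11 at 0.51. PSME2, PSMD11, PSMA4, PSMA7 and PSMD10 lost the call under at least 1 other scaling. Leaving out 1 library at a time gave 12 to 15 members with a more negative and 14 to 17 with a more positive effect. PSMD3 was called here although it was not called in embryos, at 0.57, or in pEPSCs, at -0.03. The test used a single residual variance per gene over both settings, so its p-values may be too small where embryo libraries spread more.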

How the results depend on the processing

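Counts are members called higher and lower. Under median-ratio scaling OTX2 knockout had 1 lower in place of 2, LEUTX overexpression 5 higher in place of 15, OTX2 overexpression against OTX2 knockout 7 higher in place of 11, and LEUTX overexpression against OTX2 knockout 2 higher in place of 5, or 3 under quantile normalization. On TPM as deposited embryos had 12 higher in place of 7. Leaving out 1 library at a time gave, higher and lower, 17 to 20 and 17 to 18 for OTX2 overexpression, 7 to 24 and 1 to 7 for OTX2 knockout, 12 to 15 and 19 to 22 for LEUTX overexpression, and 0 to 13 and 3 to 9 for embryos. Between lines it gave 11 to 14 and 22 to 25 for OTX2 overexpression against knockout, 10 to 13 and 15 to 20 for LEUTX against OTX2 overexpression, and 3 to 8 and 24 to 30 for LEUTX overexpression against OTX2 knockout. Among members called in either fit, signs reversed under quantile normalization for OTX2 overexpression in PSMA2 at 0.13, PSMB4 at 0.14 and PSMD2 at 0.13, and under median-ratio scaling for LEUTX overexpression in PSMA7 at -0.018; the cause was not tested. Of the other values of single members under the alternatives, with PSMC3IP included, 1987 kept sign and call, 94 changed sign while not called in either fit, 155 lost the call and 56 gained one. With the replicate number as a block the counts were 18 and 18 for OTX2 overexpression, 13 and 19 for LEUTX overexpression and 6 and 6 for embryos. Same-numbered libraries had correlations of deviations of -0.185 to 0.0707. Deviations from means of 3 libraries depend on each other, so these values cannot exclude that same-numbered libraries were made together, which the labels do not say. For the knockout no paired analysis was possible because its columns are numbered otherwise than its titles. One fit over the 12 pEPSC libraries gave 15 and 16, 22 and 2, and 10 and 15 for OTX2 overexpression, OTX2 knockout and LEUTX overexpression. Unknown read depth limits the members at a few TPM, among them PSMB8, PSMB9 and, in embryos, PSME2, PSMB10, PSMC5, PSMD3, PSMD6 and PSMC6.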
